A study of Micropterus salmoides with 6 samples.

Results

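Long noncoding RNA (lncRNA) transcripts that lie antisense to genes were measured in largemouth bass (Micropterus salmoides) intestine. A transcript was taken as antisense when its deposited span overlapped an annotated gene by 1 base or more on the same scaffold and the opposite strand, overlapped no annotated gene on its own strand, and held 60 or more counts summed over the 6 libraries. The rule took 229 of the 3399 transcripts of the lncRNA table. Before the count minimum 440 transcripts were antisense, of which 14 had 0 counts in every library. At 60 or more counts, 855 other transcripts overlapped genes in sense only, 215 overlapped genes on both strands and 621 overlapped no gene. Each antisense transcript was compared with its partner, the gene it overlaps over the longest stretch. Where genes tied, the one with more summed counts was taken. The lowest summed count of a member was 60 and the highest just outside the rule was 59, with 18 members at 60 to 69 counts and 25 antisense transcripts at 50 to 59.

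Antisense transcripts are made from the strand opposite a gene. Some are spliced and polyadenylated RNAs of their own, and others are by-products of a nearby promoter. Single examples in mammals and yeast are known to base-pair with the sense RNA, to collide with its transcription or to change chromatin at its promoter, while for most no function is known. In short-read data the orientation of a transcript rests on a strand-marking library or on the bases at splice junctions.

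The control group was kept at 26 °C and the heat group at 34 °C, and both were sampled after 9 h. Each group had 3 libraries, and each library was made from equal amounts of intestine of 3 fish taken from 1 parallel of the rearing design. All fish came from a farm and were first kept at 26 °C, and the libraries were made from total RNA. The labels give no strain, sex or age, and a pooled library hides the spread between single fish. In RNA from whole intestine, fewer cells of a type and less RNA per cell cannot be told apart.

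The gene table held between 8244328 counts (heat replicate 1) and 28822509 counts (control replicate 1) per library. Of the intestinal markers, fabp2, cdx1b and cdh17 were present in every library, with 141 to 899, 77.9 to 126 and 516 to 1377 CPM (counts scaled to a common library total), and vil1 and anpepb matched no identifier. The summed level of the smooth muscle list (5 of 5 markers matched, 0 of them at 0 in all libraries) was 4662 to 10765 CPM in controls and 3849 to 4404 CPM in heat libraries, with no overlap, and its part in the group differences below was not tested. The summed enterocyte (2 of 6 markers matched), goblet, lymphoid, pancreas, erythrocyte and liver lists overlapped between groups, with 0 of 4 macrophage and granulocyte markers matched. Matched were 35 of 36 goblet markers, 19 of them at 0 in all libraries, and 2 of 5 lymphoid and 2 of 5 pancreas markers. The erythrocyte and liver lists rested on 1 of 3 markers each. Control replicate 1 stood apart, with a correlation of log2 CPM of 0.875 and 0.853 with the other controls, which correlated at 0.932 with each other. Its goblet list was at 14949 CPM against 2649 and 2846 CPM in control replicates 2 and 3, and its enterocyte list at 2276 against 891 and 658 CPM. Most of the goblet value of control replicate 1 came from LOC119898530 (7514 CPM) and LOC119893780 (6751 CPM). Its lymphoid (29.5 against 10.4 and 10.7 CPM), erythrocyte and smooth muscle lists were also the highest of the controls. Its pancreas list lay between the other controls and its liver list was the lowest. The part of these differences in its lncRNA values was not tested. The lncRNA table made up 3.39% of the gene-table total of control replicate 1 and 6.97% to 17.5% of the others, the highest share being that of heat replicate 1. The sources used here do not give the strand setting of the counting. Without it, reads of a gene and of its antisense partner cannot be told apart, and the strand of a transcript is taken as deposited.

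The 229 transcripts came from 159 assembled loci and had 157 partner genes, 149 of them protein coding, 6 immunoglobulin or T cell receptor V segments and 2 annotated lncRNAs. Of the loci, 134 gave 1 member and 25 gave 2 or more, and 34 transcripts overlapped more than 1 gene. Among these were MSTRG.39733.1, MSTRG.37575.1 and MSTRG.117.1, and below each is compared with its partner only. The overlap had a median of 2518 nt and ranged from 131 to 86782 nt. Inside the gene lay 128 transcripts, 47 contained a whole gene, 33 reached over the gene's end and 21 over its start. The gene's start lay under the transcript in 68, and in 5 the starts of both RNAs were within 1000 nt of each other.

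**Figure D1:**
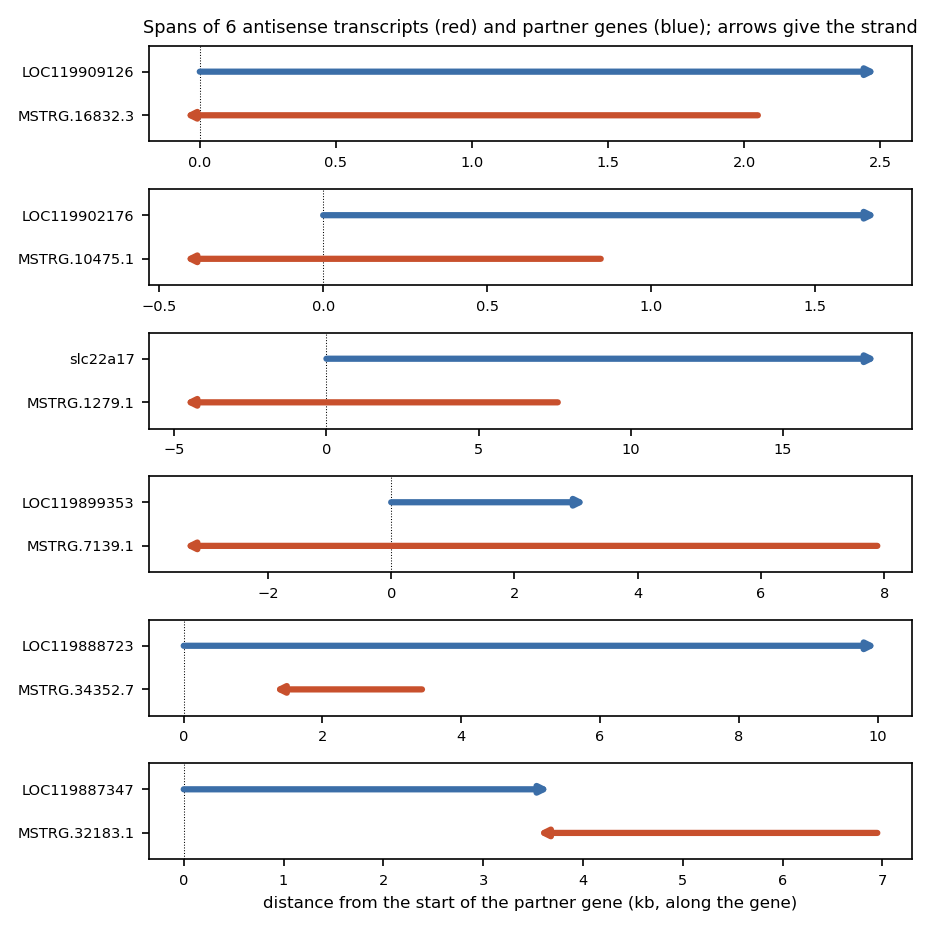
Spans of 6 antisense transcripts (red) and their partner genes (blue), with the distance from the start of the partner gene in kb on the x axis and arrowheads giving the deposited strand. MSTRG.16832.3 covers 2052 nt of the c-Fos-like gene and reaches over its start, MSTRG.7139.1 contains a whole gene, and MSTRG.32183.1 meets the end of its gene over 131 nt.

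The exonic length of a transcript could be estimated from its counts and TPM (length-scaled transcript abundance) in 224 members. It had a median of 1047 nt, against a median span of 4038 nt over all members, and made up a median of 33.1% of the span. In 38 members (17.0%) it was 90% or more of the span, so that these had little or no intron, and they still carry a strand in the deposited table. The same held for 26.4% of the sense-overlapping and 11.3% of the intergenic transcripts. Members described below that lie at 90% or more include MSTRG.11335.2, MSTRG.7802.4, MSTRG.39733.1, MSTRG.27712.34, MSTRG.4206.1, MSTRG.117.1 and MSTRG.21203.1. Their deposited strand has little or no splice junction to rest on. Partner genes had a median span of 21276 nt, of which a median of 15.2% was exonic, while over all genes with 60 or more counts the median span was 10121 nt.

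The mean TPM of the antisense transcripts over the 6 libraries had a median of 4.88 (10th to 90th percentile 2.41 to 32). Sense-overlapping transcripts had a median of 4.55 TPM with a 90th percentile of 13.1, and intergenic transcripts a median of 5.15 TPM with a 90th percentile of 73.0. The differences were not tested, and transcripts overlapping genes on both strands were not compared. The partner genes of the antisense transcripts, taken with no count minimum, had a median of 7.39 TPM, and all genes with 60 or more counts a median of 9.68 TPM. In 111 pairs (48.5%) the transcript's mean TPM was above that of its gene. This was so for 39 of the 47 transcripts that contain a gene, with median levels of 8.54 TPM for the transcripts and 0.758 TPM for the genes. These 47 came from 20 loci, with 14 from MSTRG.25007, opposite a gene with 0 counts, and 10 from MSTRG.11585, opposite a gene with 19 counts. The transcript was above its gene in 46 of the 128 pairs inside a gene, 15 of the 33 over a gene's end and 11 of the 21 over a gene's start. Taking the deepest transcript of each locus, 66 of 159 were above their gene. All 6 transcripts opposite a V segment were above it in TPM. Of the 157 partner genes, 29 held under 60 counts and 2 held none. The 60-count minimum was set for transcripts and not for partner genes, so the shares of transcripts above their gene are shaped by it.

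**Figure D2:**
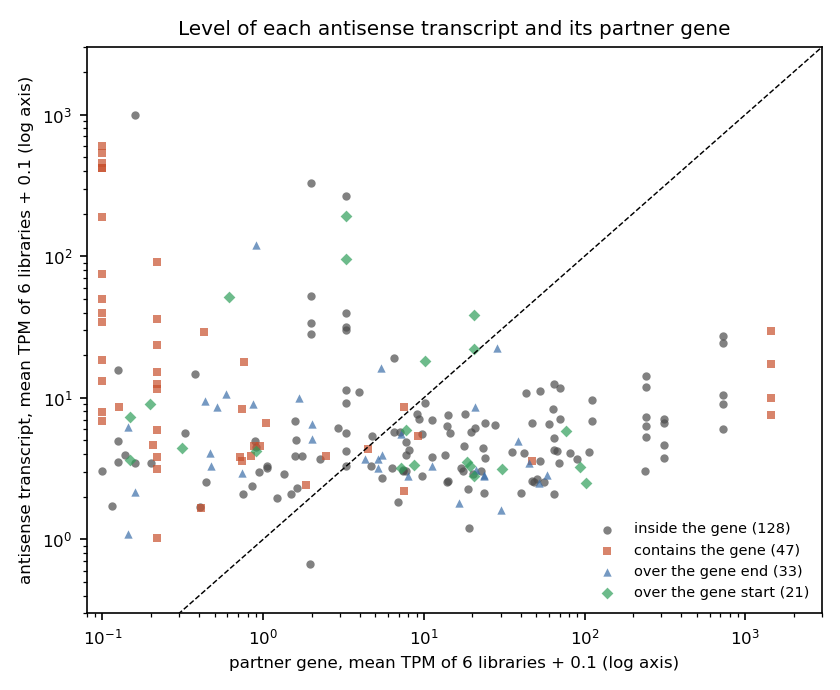
Mean TPM of each antisense transcript (y axis) against the mean TPM of its partner gene (x axis), both over 6 libraries with 0.1 added and on log axes, with 1 point per transcript and the dashed line marking equal levels. The transcripts lie mostly between 2.41 and 32 TPM (10th to 90th percentile), and most that contain a whole gene (39 of 47) lie above the line.

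A few loci held most of the counts. The members summed to 262641 counts, 3.73% of the lncRNA table, with a median of 225 per transcript and a highest value of 31586. The 5 deepest loci held 72.1% of the counts, of which MSTRG.25007 held 28.8%, MSTRG.34340 23.4%, MSTRG.17206 9.21%, MSTRG.34352 6.18% and MSTRG.32183 4.57%. MSTRG.17206.1 was the member of highest mean TPM, at 992 TPM. It lies inside LOC119908630, a gene with no description and 6 counts in all. Its level was 119, 368 and 534 CPM in control replicates 1 to 3 and 261, 262 and 181 CPM in heat replicates 1 to 3. The heat values lay within the range of the controls (log2 change -0.54, SE 0.52).

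MSTRG.25007 gave 14 members, each of which contains si:zfos-1056e6.1, an uncharacterised protein gene with 0 counts in every library, and 5 of them are among the 8 members of highest TPM. Their counts moved between isoforms from library to library. MSTRG.25007.27, for instance, had 4741 counts in heat replicate 1 and 0 in each of the other libraries. MSTRG.25007.17 had 4177 and 11308 counts in control replicates 1 and 2, 3689 in heat replicate 3 and 0 elsewhere. All 31 transcripts of the locus, of which 14 were members, were together at 984, 1424 and 1697 CPM in controls and at 5920, 1656 and 1041 CPM in heat libraries. The groups overlapped, and heat replicate 1 alone was far above the rest (log2 fold change 1.07, SE 0.66, adjusted p = 0.51 by edgeR's quasi-likelihood test with Benjamini-Hochberg adjustment). Isoform counts of such loci are estimates that share reads, so single isoforms are uncertain.

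The next deepest loci lie opposite LOC119888722 and LOC119888723, a pair of NACHT domain- and WD repeat-containing protein 1-like genes of 1 scaffold. NACHT domains are nucleotide-binding modules found in many intracellular immune sensors. MSTRG.34340.15, on the minus strand inside LOC119888722, had a mean of 267 TPM against 3.20 TPM for the gene. It was at 25.2, 463 and 451 CPM in controls and 706, 522 and 265 CPM in heat libraries. MSTRG.34352.7, on the plus strand inside LOC119888723, had a mean of 326 TPM against 1.90 TPM. It was at 25.6, 142 and 146 CPM in controls and 320, 180 and 119 CPM in heat libraries. For both, control replicate 1 was the lowest library by far and the other controls lay within the heat range.

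That low value of control replicate 1 ran through the class. Over the 198 members tested, the median deviation of a library from the transcript's own mean was -1.39 on the log2 CPM scale in control replicate 1. In control replicates 2 and 3 it was 0.44 and 0.45, and in heat replicates 1 to 3 it was 0.45, 0.31 and 0.13. Over all 1734 tested lncRNA transcripts control replicate 1 lay at -1.01, over the partner genes at -0.19 and over all tested genes at 0.11. Of the 229 members, 43 had 0 counts in control replicate 1, against 13 to 33 in any other library. That library had the highest gene-table total and the lowest total of the lncRNA table, 978506 counts. The part of this library in the values below was not tested beyond leaving it out.

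**Figure D3:**
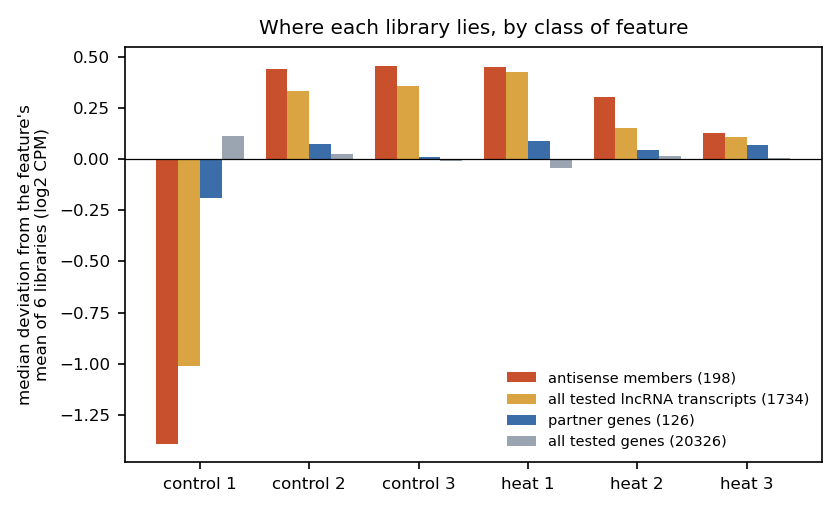
Median deviation of each library from a feature's own mean over 6 libraries, on the log2 CPM scale, as bars for 4 classes of feature with the number tested in brackets. The bar of control replicate 1 reaches -1.39 for antisense members and -1.01 for all tested lncRNA transcripts, while for partner genes and all genes it stays near 0.

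The heat comparison asks whether antisense transcripts differ in level after 9 h at 34 °C. No member passed. Of the 229 transcripts 198 had counts enough for the test and 31 did not, 21 of which had over 50% of their counts in 1 library. By edgeR's quasi-likelihood test, 0 of the 198 had an adjusted p under 0.05, as had 0 of the 1734 tested lncRNA transcripts (0%), and the smallest adjusted p of a member was 0.111. At an unadjusted p under 0.05, 25 members were higher in heat, where the share over all tested lncRNA transcripts was 9.57%, and 9 were lower, against 4.9%. The 3 heat values lay above all 3 control values in 27 members, against 13.3% of all tested lncRNA transcripts, and below them in 9, against 4.44%. These shares are the background for the members' counts, and the difference from them was not tested. The count minimum was summed over both groups, so a member with few counts in either group could meet it through the other alone. The median log2 fold change (heat minus control) of the members was 0.25, with 118 above 0 and 80 below, against 0.18 over all tested lncRNA transcripts and -0.12 over all tested genes. Without control replicate 1 the median of the members was 0.05.

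The tests differed in how many members they called. DESeq2 called 17 members, where it called 7.3% of all lncRNA transcripts. In it 40 members had an unadjusted p under 0.05, as had 304 of the 1734 tested lncRNA transcripts. Among the DESeq2 calls were MSTRG.16832.3, MSTRG.32826.1, MSTRG.7802.4, MSTRG.37575.1, MSTRG.11335.2 and MSTRG.11331.1, higher in heat. Lower in heat were MSTRG.1279.1, MSTRG.35868.1, MSTRG.27712.34, MSTRG.7139.1 and MSTRG.34340.18. The main edgeR test called none of them. Without control replicate 1, edgeR called 2.16% of all lncRNA transcripts and 5 members, namely MSTRG.16832.3, MSTRG.1279.1, MSTRG.34340.18, MSTRG.35868.1 and MSTRG.14879.11. The last had 0 counts in the heat group, met the count minimum through controls alone and was not tested in the main fit. All 17 transcripts of its locus together had a log2 change of -0.35 (SE 1.08), and isoform counts of such loci are uncertain. With voom and sample quality weights, chosen after seeing the data, 6 members were called, where 2.08% of all lncRNA transcripts were. Limma on log2(TPM + 1) called MSTRG.16832.3 alone among the members, and 0.978% of all lncRNA transcripts. Within groups the log2 CPM of a member varied with a median SD of 1.13, against 0.446 for partner genes and 0.956 for all tested lncRNA transcripts.

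The antisense transcript of smallest unadjusted p lies at a c-Fos gene. c-Fos is an immediate early transcription factor, which joins Jun proteins in the AP-1 complex and is induced within minutes by growth factors and many kinds of stress. The gene LOC119909126, described as proto-oncogene c-Fos-like, lies on the plus strand of scaffold NW_024040928.1 from 14670061 to 14672551, in the coordinates of the deposited tables. MSTRG.16832.3 lies on the minus strand from 14670002 to 14672112, covers 2052 nt of the gene and reaches over its start, with an estimated exonic length of 1135 nt.

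MSTRG.16832.3 had 0, 2 and 2 counts in control replicates 1 to 3 and 75, 94 and 72 counts in heat replicates 1 to 3, or 0, 0.129 and 0.165 CPM against 9.74, 5.59 and 4.62 CPM. The c-Fos-like gene was at 9.01, 8.57 and 6.59 CPM in controls and at 60.7, 191 and 110 CPM in heat libraries. Both RNAs were higher in every heat library than in any control. The group means were 0.0979 ± 0.0866 and 6.65 ± 2.72 CPM for the transcript and 8.06 ± 1.29 and 121 ± 65.8 CPM for the gene (SD, n = 3 each). The gene rose, with a log2 fold change of 3.90 (SE 0.46, n = 3 against 3, adjusted p = 0.0228 by edgeR's quasi-likelihood test with Benjamini-Hochberg adjustment over all genes). The transcript's log2 fold change was 6.17 (SE 0.82), with an unadjusted p of 7.36e-05 and an adjusted p of 0.111 over all lncRNA transcripts in the same edgeR test, which missed the threshold. Its size depends on the few control counts. Nearly all counts of MSTRG.16832.3 lay in heat libraries, so it met the count minimum through that group. Without control replicate 1 the transcript passed, with an adjusted p of 0.0207 in edgeR and a log2 fold change of 5.43. Over all single libraries left out, its edgeR adjusted p ranged from 0.0207 to 0.159, and DESeq2 gave 1.93e-09. For the gene, leaving out a library other than control replicate 1 moved the edgeR adjusted p above 0.05 each time, up to 0.129.

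In length-scaled terms the antisense RNA stayed the smaller of the pair. It was listed at 0, 0.27 and 0.29 TPM in controls and 13, 11.2 and 9.49 TPM in heat libraries, while the gene had 7.96, 11 and 7.21 TPM and then 50.3, 239 and 141 TPM. As a share of the counts of both strands, the antisense transcript held 0% of the 210 counts of control replicate 1, which allows up to 1.43% by a limit of 3 counts. It held 1.48% and 2.44% in the other controls. In heat replicate 1 it held 13.8% (95% exact Clopper-Pearson interval 11 to 17.0, counting error only), in heat replicate 2 2.84% (2.30 to 3.47) and in heat replicate 3 4.03% (3.16 to 5.04). Heat replicate 1 thus had the highest antisense level and the lowest gene level of the heat group. The strand setting is not given, so the shares and their intervals do not cover reads assigned to the wrong RNA of the pair. How many such reads there were was not tested. The change of the log ratio of transcript to gene was 1.15 on the log2 scale (SE 0.84, adjusted p = 0.749 by limma over 1262 pairs).

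**Figure D4:**
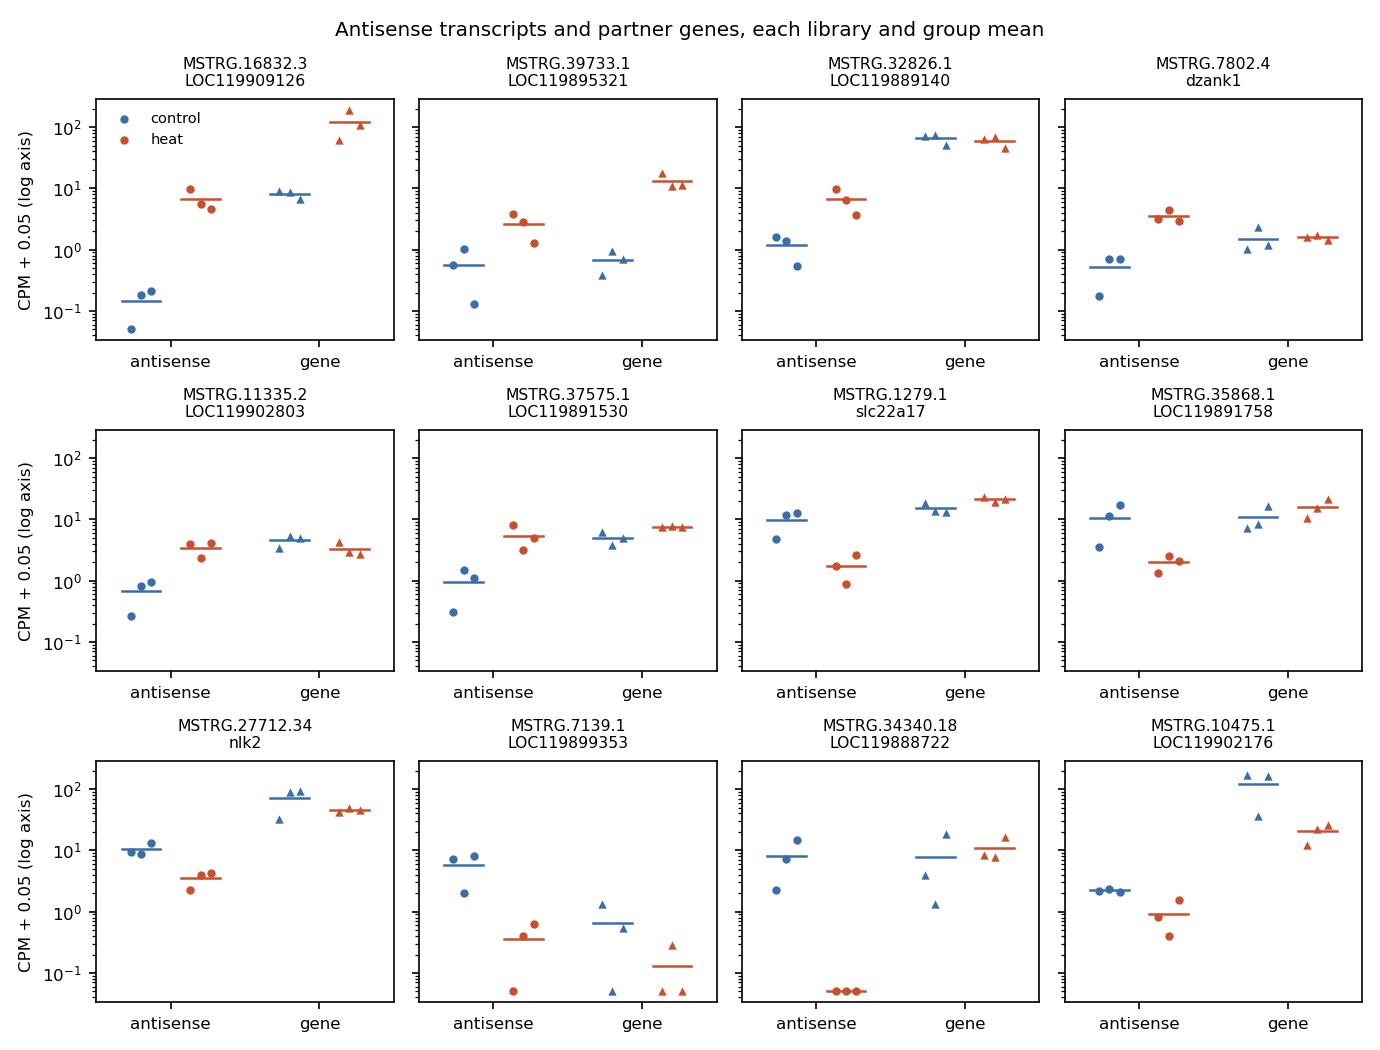
CPM + 0.05 (log axis) of 12 antisense transcripts (circles) and their partner genes (triangles) in each control (blue) and heat (red) library, with a line at the group mean. In the c-Fos-like pair both RNAs are higher in all 3 heat libraries, while in the pair of LOC119889140 the groups do not overlap for the transcript and overlap for the gene.

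The other partner gene to pass was LOC119895321, a protein-coding gene with no description in the table. It was at 0.343, 0.903 and 0.659 CPM in controls and 17.7, 11 and 11.3 CPM in heat libraries. It rose by a log2 fold change of 4.40 (SE 0.47, adjusted p = 0.0203 by edgeR's quasi-likelihood test). MSTRG.39733.1, a transcript of 1367 nt inside it with an estimated exonic length of nearly its whole span, was at 0.515, 0.967 and 0.0823 CPM in controls and 3.77, 2.74 and 1.22 CPM in heat libraries. Its groups did not overlap either, with a log2 fold change of 2.24 (SE 0.80, edgeR adjusted p = 0.262). The control counts of MSTRG.39733.1 summed to fewer than the count minimum, so it met the minimum through the heat group. The log ratio of this pair changed by -1.96 (SE 0.87, adjusted p = 0.662 by limma).

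These 2 were the partner genes past the threshold among 126 tested of 157, both higher in heat. Over all 20326 tested genes 0.984% passed and 0.59% passed with higher values. Groups did not overlap in 23 partner genes with heat higher, against 11.5% of all genes, and in 16 with heat lower, against 14.4%. DESeq2 called 17 partner genes, edgeR without control replicate 1 called 18 and voom with sample quality weights called 19. Over all genes these fits called 7.08%, 8.71% and 10.2%. Leaving out any other single library left 0 partner genes called, in fits that called 0% to 0.0478% of all genes.

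The next 4 transcripts with higher values in heat lay inside genes that did not pass the test. They had the smallest unadjusted edgeR p after the c-Fos-like one, among transcripts with a mean of at least 1 CPM and no overlap of groups. MSTRG.32826.1 lies inside LOC119889140, a GDNF family receptor alpha-4-like gene, of a family of co-receptors for neurotrophic factors of the enteric and other nerves. It was at 1.54, 1.35 and 0.494 CPM in controls and 9.61, 6.42 and 3.66 CPM in heat libraries (log2 change 2.49, SE 0.56, adjusted p = 0.113 in edgeR). The gene was at 70.7, 74.2 and 50.9 CPM and then at 63.4, 69.3 and 45.8 CPM. The transcript's groups did not overlap and those of the gene did, and the log ratio differed by 2.56 (SE 0.54, adjusted p = 0.338 by limma).

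MSTRG.7802.4 lies inside dzank1, a gene with a role in cilia in zebrafish. It was at 0.129, 0.645 and 0.659 CPM in controls and 3.12, 4.46 and 2.89 CPM in heat libraries (log2 change 2.91, SE 0.66, adjusted p = 0.113 in edgeR), while dzank1 was at 0.987 to 2.26 CPM in controls and 1.41 to 1.67 CPM in heat libraries. MSTRG.37575.1, inside LOC119891530, a scavenger receptor cysteine-rich type 1 protein M160-like gene, was at 0.257, 1.42 and 1.07 CPM and then 7.92, 3.09 and 5.0 CPM (log2 change 2.56, SE 0.67, adjusted p = 0.135 in edgeR). Its gene was at 3.74 to 6.13 CPM in controls and 7.41 to 7.67 CPM in heat libraries (log2 change 0.61, SE 0.32). All 3 heat libraries were above all controls for both transcripts, and control replicate 1 was the lowest. In sum, the control counts of each lay below the count minimum, so both met it through the heat group.

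A pair of PEX5-related protein-like genes of 1 scaffold, relatives of the peroxisomal import receptor, each carried an antisense transcript of the same direction. MSTRG.11335.2, inside LOC119902803, was at 0.215, 0.774 and 0.906 CPM in controls and 3.90, 2.32 and 4.04 CPM in heat libraries (log2 change 2.46, SE 0.63). MSTRG.11331.1, inside LOC119901629, had 0, 4 and 0 counts in controls and 7, 30 and 46 counts in heat libraries (log2 change 4.40, SE 1.15). The control counts of either transcript lay below the count minimum, so both met it through the heat group. Both genes had lower mean levels in heat, by a log2 change of -0.49 (SE 0.38) for LOC119902803 and -0.65 (SE 0.57) for LOC119901629, and their groups overlapped. The log ratios differed by 2.79 (SE 0.69, adjusted p = 0.356 by limma) and 3.89 (SE 0.85, adjusted p = 0.338 by limma).

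Among transcripts with lower values in heat, MSTRG.1279.1 reaches over the start of slc22a17, whose product in mammals takes up the iron-carrying protein lipocalin 2. It was at 4.81, 11.8 and 12.8 CPM in controls and 1.69, 0.833 and 2.57 CPM in heat libraries (log2 change -2.53, SE 0.56, adjusted p = 0.112 in edgeR). The gene was at 18.5, 13.8 and 13 CPM and then at 23.1, 19.4 and 21.4 CPM (log2 change 0.49, SE 0.26, adjusted p = 0.390 in edgeR). Neither RNA's groups overlapped, and they lay in opposite directions. The log ratio differed by -2.95 (SE 0.73, adjusted p = 0.356 by limma). Without control replicate 1 the edgeR adjusted p of the transcript was 0.0297.

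MSTRG.35868.1, inside the undescribed gene LOC119891758, was at 3.48, 11.2 and 17.0 CPM in controls and 1.3, 2.50 and 2.05 CPM in heat libraries (log2 change -2.40, SE 0.60, adjusted p = 0.126 in edgeR, and 0.0229 without control replicate 1). The gene had a log2 fold change of 0.56 (SE 0.42). Its groups overlapped, while those of the transcript did not.

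MSTRG.27712.34 lies inside nlk2, which encodes a Nemo-like kinase, a regulator of Wnt signalling. It was at 9.35, 8.83 and 13 CPM in controls and 2.21, 3.87 and 4.30 CPM in heat libraries (log2 change -1.57, SE 0.37, adjusted p = 0.119 in edgeR). In this transcript control replicate 1 lay with the other controls. The gene itself was at 32.7, 89.1 and 91.8 CPM and then at 41.8, 49.2 and 46.2 CPM. Control replicate 1 lay below the heat libraries there, and without it the gene passed in the lower direction (edgeR adjusted p = 0.0177).

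MSTRG.7139.1 contains LOC119899353, an ecto-ADP-ribosyltransferase 4-like gene of a family of cell-surface enzymes. It was at 7.12, 2.0 and 8.15 CPM in controls and 0, 0.357 and 0.577 CPM in heat libraries (log2 change -4.02, SE 0.86, adjusted p = 0.112 in edgeR). Nearly all counts of MSTRG.7139.1 lay in controls, so it met the count minimum through that group. The gene had 40 counts in all, 30 of them in control replicate 1, and was not tested.

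MSTRG.34340.18, an isoform opposite LOC119888722, had 51, 112 and 182 counts in controls and 0 in each heat library. Against a limit of 3 counts over the heat group the difference was 90.5-fold, which allows for counting error only. MSTRG.34340 gave 11 members, and isoform counts of such loci are estimates that share reads. The limit does not cover the assignment of reads to isoforms, so 90.5-fold is not a lower bound. All counts of MSTRG.34340.18 lay in controls, so it met the count minimum through that group alone. The log ratio of MSTRG.34340.18 to the gene had the smallest p of any antisense pair (adjusted p = 0.131 by limma). The locus as a whole did not share the lower values in heat. All 12 transcripts of MSTRG.34340, of which 11 were members, were together at 90.1, 868 and 884 CPM in controls and 1215, 1068 and 485 CPM in heat libraries (log2 change 0.59, SE 0.75).

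Partner genes were also sorted by lists. No partner was in the heat shock list or the clock list, and the c-Fos-like gene was the 1 partner in the immediate early list. The immune list held 7 partner genes with 9 transcripts, of which 0 of each passed the adjusted threshold in the main edgeR test. The list took genes by words in their symbol or description. They were lat, the adaptor of T cell receptor signalling, 4 genes for NLR-type intracellular sensors (LOC119916213, LOC119911798, LOC119909371 and LOC119897289) and an immunoglobulin lambda-1 light chain-like gene, LOC119907708. The last was a complement C1q-like protein 2 gene, LOC119902176, which in mammals encodes a secreted protein of synapses. The 6 V segment partners matched none of the list's words and are not counted in it.

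Both RNAs of the C1q-like pair had lower values in heat, with the strands taken as deposited. MSTRG.10475.1, which reaches over the gene's start with the starts of both RNAs 846 nt apart, was at 2.15, 2.32 and 2.06 CPM in controls and 0.779, 0.357 and 1.48 CPM in heat libraries (log2 change -1.31, SE 0.60, adjusted p = 0.375 in edgeR). The gene was at 167, 36.3 and 164 CPM and then at 12.3, 22.5 and 26.3 CPM (log2 change -2.58, SE 0.59, adjusted p = 0.0894 in edgeR). Groups did not overlap for either RNA. The heat counts of MSTRG.10475.1 summed to fewer than the count minimum, so it met the minimum through controls. The gene's value in control replicate 2 lay nearer the heat libraries than the other controls. DESeq2 called the gene (adjusted p = 4.36e-04), while the other alternatives did not.

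In the other immune pairs 0 transcripts or genes passed in the main edgeR test either. The transcript inside lat, MSTRG.4206.1, was at 0.0858, 1.22 and 2.31 CPM in controls and 2.21, 5.83 and 5.32 CPM in heat libraries, with groups that overlapped (log2 change 1.94, SE 0.91). The NLR gene LOC119916213 was at 7.16, 19.0 and 16.6 CPM and then at 35.1, 43.6 and 30.1 CPM (log2 change 1.35, SE 0.39, adjusted p = 0.143 in edgeR), and its transcript MSTRG.117.1 had a log2 fold change of 1.72 (SE 0.72, adjusted p = 0.342). The gene's heat libraries all lay above its controls, while the groups of the transcript overlapped. Adjusted p of the gene was 0.0342 in edgeR without control replicate 1, 0.0304 in DESeq2 and 0.0342 in voom with sample quality weights. The other alternatives did not call it. For MSTRG.4206.1 and MSTRG.117.1 the control counts summed to fewer than the count minimum, so both met it through the heat group. The transcripts at LOC119909371 and LOC119897289 had values of 0.92 to 1.14 and of -1.54 to -1.22 on the same scale, and of these 4 transcripts MSTRG.19682.2 alone had groups that did not overlap, with heat above. MSTRG.14865.3, inside the light chain gene, had -1.11 (SE 0.74). MSTRG.21203.1, at LOC119911798, had 60 of its 66 counts in control replicate 1 and was not tested.

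Transcript and gene changes went together only loosely. In 153 antisense pairs both RNAs were tested, and 81 pairs (52.9%) had log2 fold changes of the same sign, 51 with both higher in heat and 30 with both lower. In 43 pairs the transcript was higher and the gene lower, and in 29 the reverse. Across these pairs, which share libraries and in part loci, Pearson's r of the log2 fold changes was 0.20 and Spearman's rho 0.17. In 749 sense-overlapping pairs the signs matched in 483 (64.5%), with r of 0.46 and rho of 0.43. After group means were removed, the median correlation of transcript and gene over the 6 libraries was 0.06 in antisense and 0.34 in sense pairs. These are descriptions, and the difference between both kinds of pair was not tested.

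**Figure D5:**
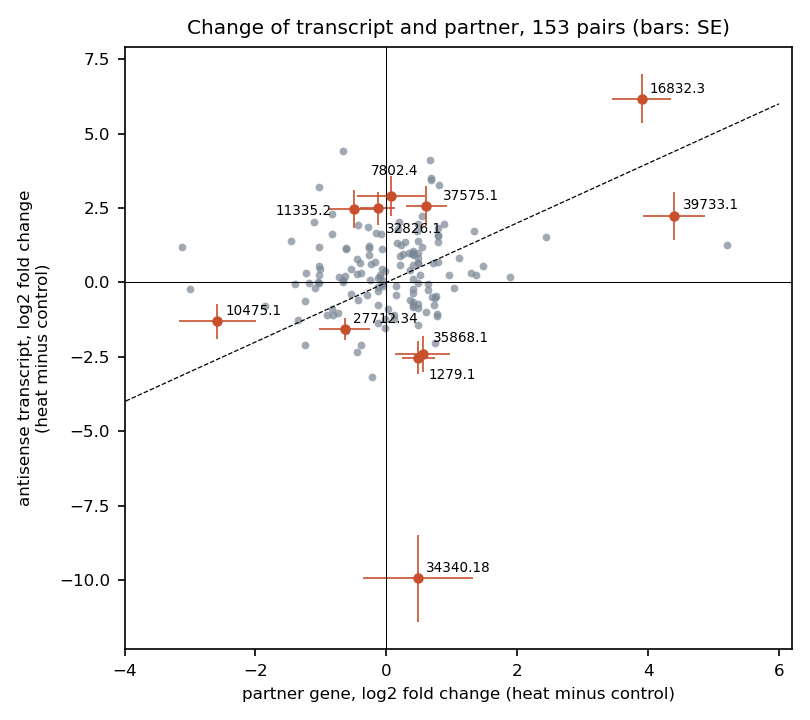
Log2 fold change (heat minus control) of each antisense transcript (y axis) against that of its partner gene (x axis) in 153 pairs, with the transcripts described in the text in red with bars of 1 SE and the dashed line marking equal change. The pair of MSTRG.16832.3 lies at 3.90 and 6.17, that of MSTRG.39733.1 lies below the line, and most other red pairs lie near the vertical line at 0.

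The test of the log ratio asks whether a transcript differed from its own gene in its heat effect. By limma with Benjamini-Hochberg adjustment, 0 of the 153 antisense pairs passed, as did 0 of all 1262 overlapping pairs (0%), and the smallest adjusted p was 0.131. At an unadjusted p under 0.05 there were 17 antisense pairs, against 6.89% of all pairs, 11 with the transcript relatively higher in heat and 6 with it lower.

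The following pairs were chosen after their values were seen. A pair of HEAT repeat-containing protein 1-like genes, whose yeast and human relatives act in ribosome assembly, lie on separate scaffolds and each carried antisense transcripts of like profile. MSTRG.41295.4, inside LOC119896332, was at 0.215, 0.967 and 9.39 CPM in controls and 67.2, 30.5 and 14.6 CPM in heat libraries (log2 change 3.45, SE 1.19). MSTRG.24446.6, inside LOC119915862, was at 0.129, 0.709 and 7.41 CPM and then 46.8, 14.9 and 16.2 CPM (log2 change 3.28, SE 1.19). In both, control replicate 3 lay between the other controls and the heat libraries. With 1 library left out the log2 change of MSTRG.41295.4 ranged from 2.71 to 6.08, the highest without control replicate 3. The log2 change of LOC119896332 was 0.69 (SE 0.42) and that of LOC119915862 was 0.81 (SE 0.27), and the groups of the latter did not overlap. The copies may share reads, so their separate values are uncertain.

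MSTRG.11561.2 lies inside lacc1, in mammals an enzyme of macrophages. The transcript was at 0.386, 0.516 and 1.24 CPM in controls and 3.38, 2.20 and 3.08 CPM in heat libraries (log2 change 2.04, SE 0.59), while lacc1 was at 31.8, 16.8 and 13.8 CPM and then 7.79, 7.37 and 13.9 CPM (log2 change -1.10, SE 0.42). Only the transcript's groups did not overlap. Its control counts summed to fewer than the count minimum, so it met the minimum through the heat group. At LOC119902764, a protein disulfide-isomerase TMX3-like gene of the endoplasmic reticulum, both RNAs were higher in every heat library. The gene had a log2 fold change of 2.43 (SE 0.79) and its transcript MSTRG.11203.1 one of 1.52 (SE 0.44).

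MSTRG.5804.2, over the end of nrsn1, was at 13.3, 27.1 and 62.7 CPM in controls and 1.69, 1.07 and 8.53 CPM in heat libraries (log2 change -3.16, SE 0.88), while nrsn1 was at 0.577 to 2.23 CPM. MSTRG.36755.1 contains cldn26, a claudin gene with 2 counts in all. It was at 9.14, 7.54 and 4.04 CPM in controls and 17.1, 17.6 and 15.8 CPM in heat libraries (log2 change 1.28, SE 0.35, adjusted p = 0.142 in edgeR). Claudins are proteins of tight junctions. Groups did not overlap for either transcript, and DESeq2 called both, with adjusted p of 0.0020 and 0.0136.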

How the data were processed

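Whole-number counts and TPM (length-scaled abundance) per gene and per lncRNA transcript were deposited by the authors for each of the 6 libraries. Tools listed, per the submitters' processing notes, are StringTie 1.3.3, HISAT2 2.1.0 and DESeq, with no step assigned to each. Genome build and strand setting are not given in the sources used here. Start and end agreed for 33186 of the 33187 genes matched to the RefSeq table of assembly ASM1485139v1, which was used for biotypes.

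Deposited counts were tested with edgeR 4.0.16 in R 4.3.3 (quasi-likelihood F test, TMM scaling, filterByExpr at min.count 10 and min.total.count 15) in 1 joint fit of genes and lncRNA transcripts. Assembled genes that repeat the lncRNA counts were left out. Benjamini-Hochberg adjustment ran over all 20326 tested genes or all 1734 tested lncRNA transcripts, with a threshold of 0.05. The log ratio of transcript to gene (log2 CPM, prior count 2) was tested with limma 3.58.1. CPM are per 1e+06 counts of the TMM-scaled library, and SE was taken from the F statistic. Exonic length was estimated from the ratio of counts to TPM. Libraries are labelled as separate pools of fish. DESeq2 1.42.0, voom with quality weights, limma on log2(TPM + 1), other scalings and filters, a replicate block and each library left out served as alternatives.

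Members and lists were chosen with earlier results of these data known. Pairs named were those with a transcript or gene past the threshold, the 5 transcripts per direction of smallest p with a mean of at least 1 CPM and no overlap of groups, the 8 of highest TPM, the 5 of smallest ratio p, partners in the lists and the c-Fos-like pair. On data simulated for the heat comparison, with 22060 features and 25 lncRNA transcripts per fold, 32% were recovered at 4-fold, 60% at 8-fold, 80% at 16-fold and 100% at 32-fold. In the deposited data MSTRG.16832.3, at an estimated 71.9-fold, was not called (edgeR adjusted p = 0.111). The simulated rates therefore need not hold for the members, and 0 calls do not exclude large changes. For the log ratio test, 42.7% of 82 changed pairs were recovered among 1170 simulated pairs. No sequence or promoter motif was analysed here.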

Additional observations from a re-analysis of the deposited data

How the results depend on the processing

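Antisense transcripts past the threshold were 0 in the main edgeR test and also with RLE or upper-quartile scaling, no count filter, robust dispersion, the lncRNA table alone, a replicate block and transcripts summed per locus. They were 17 with DESeq2, 1 with limma on log2(TPM + 1), 6 with voom and quality weights, and 0 to 5 with 1 library left out. For partner genes, the share of all tested genes called by the same fit is given in brackets. Partner genes past the threshold were 2, then 3 with RLE scaling (1.01%) or upper-quartile scaling (1.02%), 17 with DESeq2 (7.08%), 1 with limma on TPM (0.355%), 19 with voom (10.2%), 0 with the replicate block, and 0 to 18 with 1 library left out. The cause was not tested. Deviations of same-numbered control and heat libraries had correlations of -0.011, -0.012 and 0.040, and those of differently numbered libraries lay between -0.039 and 0.039. With 3 libraries per group these values cannot show whether same-numbered libraries shared a parallel or a batch. With the block 0 transcripts and 0 log ratio pairs passed. Log ratio pairs past the threshold were 0 under every alternative run. Members numbered 340 at a minimum of 20 counts, 123 at 200 counts, 229 at an overlap of 100 bases and 444 with same-strand overlap allowed, and 35 in place of 36 had groups that did not overlap on TPM.

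Of the named log2 fold changes under alternatives, 597 kept direction and side of the threshold, 26 passed it newly, 13 lost it and 19 turned sign. MSTRG.25007.1 was at 0.10 with the lncRNA table alone and -14.0 to 0.63 with 1 library left out. MSTRG.2014.1 ranged from -2.52 to 0.39, LOC119888722 from -0.027 to 2.105, LOC119889140 from -0.26 to 0.017, and LOC119911798 from -0.84 to 0.066 in that way. lat was at 0.0077 with voom and -0.74 to 0.0014 with 1 library left out, and dzank1 at -0.14 with voom and -0.13 to 0.52. LOC119897289 was at 0.021 with RLE, 0.029 with upper-quartile scaling, 0.011 with DESeq2 and -0.19 to 0.22 with 1 library left out. The depth limits single transcripts, since 72 members had 0 counts in 1 or more libraries. Promoter motifs were not run.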
